A study of Homo sapiens with 6 samples.

Results

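The NF-kB subunits are 5 related genes, NFKB1, NFKB2, RELA, RELB and REL, and MAP3K14, the kinase NIK that feeds one branch of the pathway, is taken with them here as the sixth. They were followed in Caco-2 cells over 6 times of coculture, 0, 1, 3, 6, 24 and 48 h, with 1 array at each time. Every probe set annotated to exactly 1 of these 6 symbols was taken, which gave 13 of the 41097 probe sets with a symbol of their own and 54675 probe sets in all. REL had 5 of them, NFKB2 had 3, RELA had 2, and NFKB1, RELB and MAP3K14 had 1 each. Of the 13, 12 lay above the floor of 16.2 signal units on at least 1 array and 8 lay above it on all 6 arrays. The floor is the median of all signals, and lower values were set to it.

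Caco-2 cells come from a human colon cancer and form a polarised layer with features of small-intestinal enterocytes. The cells had grown for 14 days on a porous support, which was then set above THP-1 cells, a human monocytic leukaemia line, made macrophage-like by 4 days in the phorbol ester PMA. The 0 h array is the baseline for each later time, all arrays hold Caco-2 RNA, and arrays of Caco-2 cells grown alone for the same times were not analysed here. With 1 array at each time there is no replicate, so no test was made, every value has n = 1, and a change with time in culture cannot be told apart from a change due to the THP-1 cells. Below, rows of 6 values run through 0, 1, 3, 6, 24 and 48 h, and rows of 5 values begin at 1 h.

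Proteins of the NF-kB family bind DNA as dimers through a shared Rel homology region. RELA (p65), RELB and REL (c-Rel) carry transactivation domains, while NFKB1 and NFKB2 encode the precursors p105 and p100, whose ankyrin repeats hold dimers in the cytoplasm and whose processed products are p50 and p52. In the canonical pathway, receptors such as those of TNF and interleukin-1 activate the IKK complex, IkB inhibitors are degraded, and dimers such as RELA with p50 enter the nucleus. In the non-canonical pathway, receptors such as that of lymphotoxin beta stabilise NIK, which through IKK-alpha drives processing of p100 and frees RELB with p52. In intestinal epithelium NF-kB is known for inducing chemokines and survival genes. The arrays measure mRNA, so neither subunit protein, p100 processing nor entry into the nucleus was observed.

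Median signals of the arrays lay between 15.3 and 16.7, and each array held 12017 to 12296 genes over the floor. Markers of the epithelium were above the floor on all arrays for 12 of the 12 genes with a probe set of their own, out of 13 listed, and their summed signal ran from 22549 to 26266. Single markers moved more than the sum. From 0 to 48 h FABP1 went from 2086 to 478, SI from 556 to 123 and LGALS4 from 259 to 115. KRT20 went up from 207 at 0 h to 836 at 24 h. Of 14 monocyte and macrophage markers, 12 had a probe set of their own, 5 to 8 of these lay above the floor on an array, and their summed signal ran from 531 to 876, with the highest sum at 0 h. PTPRC, SPI1 and MRC1, which mark leukocytes, were under the floor at every time, while CD14, ITGAM, LYZ, AIF1 and LAPTM5 of the same list were above it on all arrays. LYZ, lysozyme, ran from 199 to 412 and LAPTM5 from 48.8 to 141, and AIF1 had 360, 229, 111, 153, 96.5 and 43.0. The part of these signals in the results was not tested. For ACTB, the signal of the control probe set near the 3' end divided by that near the 5' end, a sign of RNA integrity and labelling, was 51.2, 27.7, 22.9, 18.0, 27.9 and 37.0. It was thus lowest at 6 h, the time at which several of the genes below were highest, and its part in the results was not tested. As a scale for measurement error, log2 ratios to 0 h of different probe sets of the same gene had a robust SD between 0.30 and 0.60 over classes of signal and times, with the larger values at low signal. That spread does not hold the variation between cultures.

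The promoter windows of 3 of the 6 genes held sequences that match the 10-letter NF-kB consensus, the kB motif, and these are shown because genes of the family are known to be regulated by NF-kB itself. Windows run from 250 bases before to 50 bases after an annotated start, were taken from RefSeq (GRCh38.p14), and were searched on both strands. RefSeq windows were at hand for 5 of the genes, 9 windows in all, and RELB had no entry. At least 1 match stood in 4 of these 9 windows, against 11.3% of the 35116 windows of the same length over all genes. The 4 windows follow, 5′ to 3′ along the strand of the gene, with the bases of a match in capitals.
NFKB1, chr4:102501109-102501408, plus strand: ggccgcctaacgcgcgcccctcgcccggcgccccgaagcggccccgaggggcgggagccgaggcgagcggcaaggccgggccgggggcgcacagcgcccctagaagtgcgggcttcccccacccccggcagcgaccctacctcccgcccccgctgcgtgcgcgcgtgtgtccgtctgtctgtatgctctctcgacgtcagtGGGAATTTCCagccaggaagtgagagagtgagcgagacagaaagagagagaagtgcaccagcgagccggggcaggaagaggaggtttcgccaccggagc
NFKB2 start 2, chr10:102394328-102394627, plus strand: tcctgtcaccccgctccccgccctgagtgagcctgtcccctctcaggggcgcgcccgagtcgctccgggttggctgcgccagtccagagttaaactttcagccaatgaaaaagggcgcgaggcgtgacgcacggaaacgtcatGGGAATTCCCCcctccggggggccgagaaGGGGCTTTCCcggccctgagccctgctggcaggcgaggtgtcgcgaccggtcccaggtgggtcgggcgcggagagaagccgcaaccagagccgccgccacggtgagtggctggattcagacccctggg
NFKB2 start 3, chr10:102395455-102395754, plus strand: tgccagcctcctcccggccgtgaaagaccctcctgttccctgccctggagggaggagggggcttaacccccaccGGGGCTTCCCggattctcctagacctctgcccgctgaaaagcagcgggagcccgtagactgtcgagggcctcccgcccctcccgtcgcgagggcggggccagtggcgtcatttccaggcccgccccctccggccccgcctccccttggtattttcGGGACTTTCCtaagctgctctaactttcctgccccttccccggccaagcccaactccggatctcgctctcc
REL, chr2:60881324-60881623, plus strand: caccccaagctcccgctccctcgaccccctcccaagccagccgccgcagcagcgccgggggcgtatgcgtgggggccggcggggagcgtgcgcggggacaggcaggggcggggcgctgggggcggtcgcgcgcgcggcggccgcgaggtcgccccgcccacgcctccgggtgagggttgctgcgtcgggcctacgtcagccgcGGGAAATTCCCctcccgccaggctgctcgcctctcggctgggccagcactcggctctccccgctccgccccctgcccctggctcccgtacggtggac

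In the NFKB1 window the match is GGGAATTTCC, with its first base at position -49, counting the start site as 0. In the REL window GGGAAATTCC begins at -47, and a match on the opposite strand begins 1 base further on and overlaps it. The window of NFKB2 start 2 holds GGGAATTCCC at -107, which matches on both strands and overlaps another match, and GGGGCTTTCC at -78. The window of NFKB2 start 3 holds GGGGCTTCCC at -176, again on both strands, and GGGACTTTCC at -21. NFKB2 start 1, NFKB1 start 2, both RELA starts and the MAP3K14 start had no match in these letters, which says nothing of binding there. The map of matches shows their places.

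**Figure D1:**
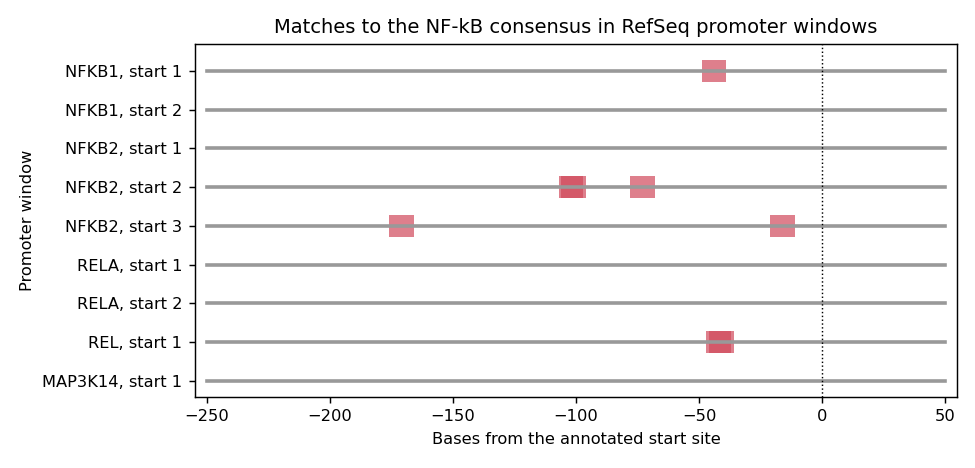
Positions of matches to the NF-kB consensus (red) in the 9 RefSeq promoter windows of 5 genes, in bases from the annotated start site (dotted line, position 0). Darker red marks matches that overlap. Matches lie in 4 windows, those of NFKB1, NFKB2 (starts 2 and 3) and REL.

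Of the 6 genes, taken by the brightest probe set of each, the numbers at least 2-fold above their 0 h level were 4, 4, 4, 2 and 1 at 1, 3, 6, 24 and 48 h, and no gene was 2-fold below it. Over all genes with the brighter of both arrays above the floor, the share at least 2-fold higher was 2.16%, 3.46%, 4.66%, 4.36% and 4.3%, and the share lower was 1.66%, 3.92%, 7.12%, 6.79% and 6.88%. The genes past 2-fold at 1 h were NFKB2, RELB, REL and MAP3K14. At 3 and 6 h they were NFKB1, NFKB2, RELB and REL, at 24 h NFKB2 and RELB, and at 48 h RELB alone. Another choice was the median over the probe sets of a gene, taken over the levels on each array before the ratio. The count at 6 h was then also 4, but REL, at a log2 ratio of 0.99, was no longer among them and RELA, at 1.29, was. For REL that median is the level of a single probe set. Other REL probe sets had 1.62, 1.56 and at least 1.52 at 6 h, all past 2-fold, and the dimmest was under the floor at 0 and 6 h. The median log2 ratio of the 6 genes was 1.36, 1.42, 1.61, 0.49 and 0.37 in the order of the times, and that of all measured genes lay between -0.04 and 0. Counted by probe set, of the 11, 12, 11, 11 and 11 with a value above the floor, 9, 9, 8, 3 and 2 were at least 2-fold higher and 0 lower, where 3.3%, 5.66%, 6.65%, 5.73% and 6.14% of all probe sets with a symbol were higher and 1.8%, 3.56%, 6.32%, 5.72% and 5.54% lower. In bulk RNA, more cells with a transcript and more transcript in each cell cannot be told apart. These are counts in single arrays, and the plots of signals and of ratios show each gene.

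**Figure D2:**
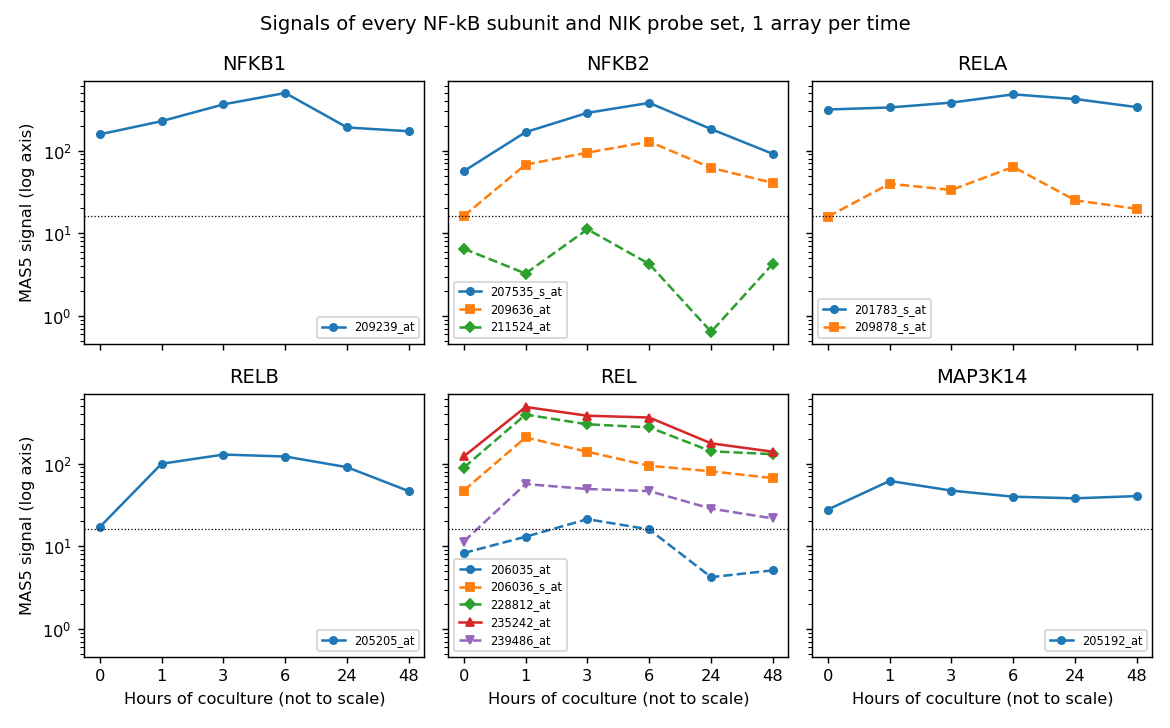
MAS5 signal (log axis) of each of the 13 probe sets at 0, 1, 3, 6, 24 and 48 h, 1 panel a gene and 1 array a time, with the brightest probe set of a gene as a solid line and the others dashed. The dotted line is the floor of 16.2. REL probe sets above the floor at several times were highest at 1 h, the NFKB1, NFKB2 and RELA probe sets above it at 6 h.

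**Figure D3:**
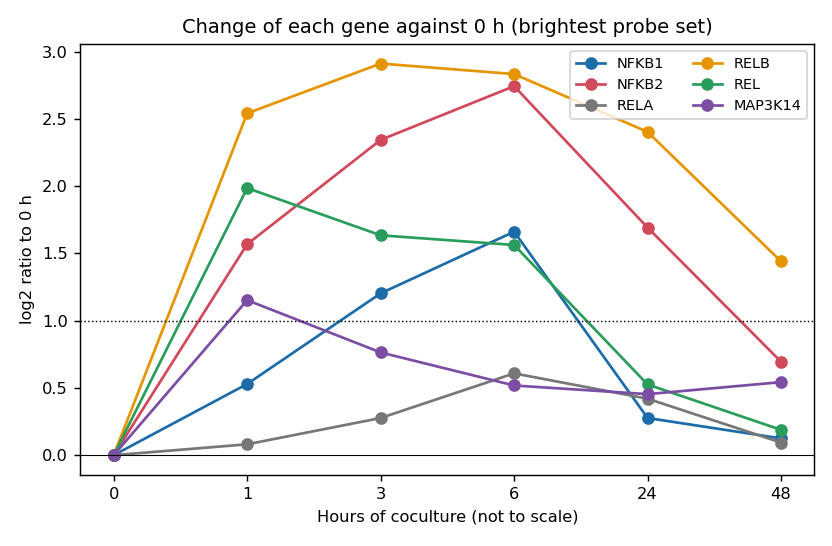
Log2 ratio to 0 h of the brightest probe set of each gene against the hours of coculture, 1 array a time. The dotted line marks a log2 ratio of 1, which is 2-fold. RELB reached 2.91 at 3 h, NFKB2 2.74 at 6 h and REL 1.99 at 1 h, while RELA was at most 0.61.

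RELA encodes the transactivating subunit p65 of the canonical dimer. Its brighter probe set had signals of 314, 332, 380, 479, 420 and 335. No time reached 2-fold, and the highest value, at 6 h, was 1.52-fold that at 0 h, a log2 ratio of 0.61 where the spread was 0.43. The second probe set was dim and read differently, with 15.9, 39.7, 33.5, 63.6, 25.1 and 19.8, of which the first value lies under the floor. It was therefore higher by at least 2.45-fold, 2.06-fold and 3.92-fold at 1, 3 and 6 h, and by at least 1.55-fold and 1.22-fold at 24 and 48 h. Both probe sets had their highest signal at 6 h and disagree on the size of the change.

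NFKB1, which encodes the precursor p105 of the p50 subunit, passed 2-fold at 3 and 6 h and not at 1 h. Its only probe set had signals of 157, 227, 362, 497, 190 and 171. The level was thus higher at each time up to 6 h, and by 24 h it lay near that of 0 h. Fold values over 0 h were 1.44, 2.30, 3.16, 1.21 and 1.09. The log2 ratio of 1.66 at 6 h compares with a spread of 0.43, and that of 0.28 at 24 h with 0.45, so the levels at 24 and 0 h could not be told apart on that scale.

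REL encodes c-Rel, a subunit best known from lymphocytes and other blood cells. It was the member with the most probe sets and was highest at 1 h in 4 of them. The brightest had 122, 484, 380, 361, 176 and 139. The second in brightness had 89.5, 392, 299, 275, 141 and 130. The next had 47.4, 207, 139, 94.2, 80.9 and 66.8. All 3 followed one course, a top at 1 h and lower values at each later time. A dimmer probe set had 11.5, under the floor, and then 56.7, 49.3, 46.6, 28.6 and 21.8. The last one, the dimmest, passed the floor only at 3 h, with 21.3. Fold values at 1 h were 3.96, 4.38 and 4.37 for the 3 probe sets measured on all arrays and at least 3.49 for the dimmer one. At 6 h the log2 ratios of the 4 ran from 0.99 to 1.62, and at 48 h from 0.19 to 0.54. The log2 ratio of 1.99 at 1 h compares with a spread of 0.33 at that signal.

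NFKB2 encodes p100, the precursor of p52 and the inhibitor that holds RELB in the non-canonical pathway. Its brightest probe set had 56.4, 167, 286, 377, 182 and 91.2. A dimmer probe set had 16.2, just under the floor, and then 67.9, 94.5, 129, 61.8 and 40.8. The brighter one was higher at 24 h than at 1 h and the dimmer one lower. Both were highest at 6 h and at 24 h were still above their values at 0 h by more than 2-fold. For the brighter one the fold over 0 h was 2.97, 5.08, 6.70, 3.23 and 1.62. For the dimmer one it was at least 4.18, 5.82, 7.92, 3.81 and 2.51 at those times. The probe sets fall on different sides of 2-fold at 48 h, where the log2 ratio of 0.69 of the brighter one compares with a spread of 0.48. Another stayed under the floor at every time, with signals of 0.646 to 11.2.

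RELB encodes the partner of p52 in the non-canonical dimer. Its only probe set had 17.1, 99.7, 129, 122, 90.6 and 46.5. The 0 h value lies just above the floor, and every later value is clearly above it. Fold values of RELB over 0 h were 5.82, 7.52, 7.12, 5.29 and 2.71, past 2-fold at every time. The signals at 3 and 6 h differ by a log2 value of 0.08, so their order was not resolved. Since the fold rests on a dim baseline, its size depends on the floor: with the floor at the 65th percentile of all signals, 37.5, the log2 ratio at 3 h was 1.78 in place of 2.91 and that at 48 h was 0.31 in place of 1.44. RELB remained at least 2-fold higher at 1, 3, 6 and 24 h under that floor, and not at 48 h.

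MAP3K14 encodes NIK, the kinase that starts p100 processing and whose protein is kept low in resting cells by constant degradation. Its only probe set had 27.8, 61.8, 47.2, 39.8, 38.1 and 40.5. The signal was highest at 1 h, and all coculture times lay above 0 h. Fold values over 0 h were 2.22, 1.70, 1.43, 1.37 and 1.46 in the order of the times, so only 1 h passed 2-fold. The log2 ratio of 1.15 at 1 h compares with a spread of 0.46 at that low signal, and with the floor at 37.5 it was 0.72, short of 2-fold. At 6 h the log2 ratio of 0.52 lay within the spread of 0.53, and the order of the values at 6, 24 and 48 h was not resolved.

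Changes between neighbouring times, each array set against the one before it, showed when the levels moved. At 3 h over 1 h, 0 of the 6 genes were past 2-fold either way, where 1.52% of all genes were higher and 1.49% lower. NFKB1 and NFKB2 had log2 changes of 0.67 and 0.78 in this interval, and REL and MAP3K14 had -0.35 and -0.39. At 6 h over 3 h, again 0 of 6 passed, with 1.13% of all genes higher and 1.51% lower. NFKB1, NFKB2 and RELA had log2 changes of 0.46, 0.40 and 0.33, while RELB, REL and MAP3K14 had -0.08, -0.07 and -0.25. Between 6 and 24 h, 3 of 6 genes were at least 2-fold lower, where 2.68% of all genes were lower and 2.34% higher. These were NFKB1, 2.61-fold lower at 24 h than at 6 h, NFKB2, 2.07-fold lower, and REL, 2.05-fold lower. RELB was 1.35-fold lower over the same interval, RELA 1.14-fold and MAP3K14 1.05-fold. At 48 h over 24 h, 0 of 6 passed, with 1.11% of all genes higher and 1.54% lower, and NFKB2 and RELB came close with log2 changes of -0.997 and -0.963. The bar plot of steps shows that no gene had its largest gain after 3 h except RELA, whose largest gain was 0.33, at 6 h over 3 h.

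**Figure D4:**
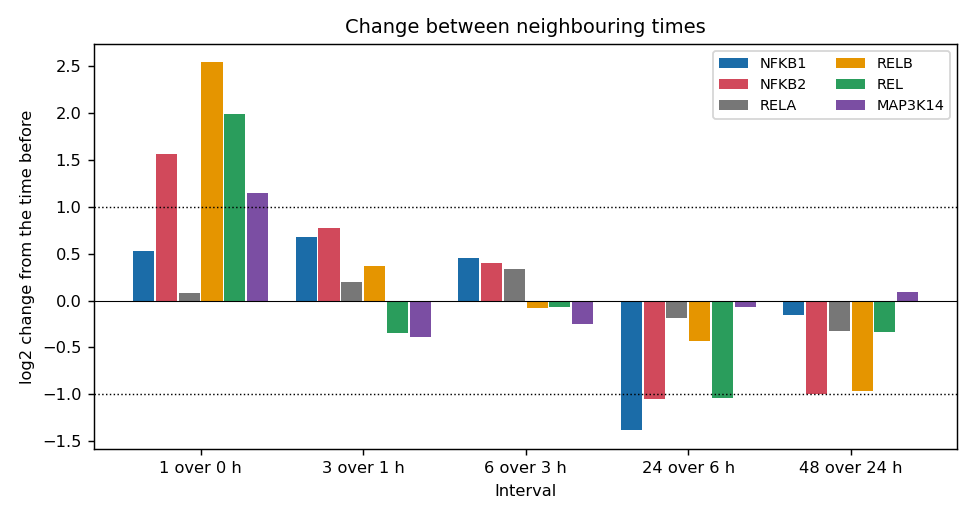
Log2 change of each gene (brightest probe set, 1 array a time) against the time before it, for 5 intervals, with dotted lines at 2-fold either way. At 1 over 0 h the bars run from 0.08 for RELA to 2.54 for RELB, and at 24 over 6 h NFKB1, NFKB2 and REL pass -1.

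The courses differed among the members in size and timing. As a measure of likeness, the root mean square difference of the 5 log2 ratios to 0 h was smallest between RELA and MAP3K14 (0.57), NFKB1 and MAP3K14 (0.65), NFKB1 and RELA (0.66) and NFKB2 and RELB (0.68). It was largest between RELA and RELB (2.18). NFKB2 and RELB lay furthest apart at 1 h, by 0.97, when RELB was already near its top and NFKB2 was not. NFKB1 and NFKB2, the genes of the p105 and p100 precursors, were both highest at 6 h, and their log2 ratios lay furthest apart at 24 h, by 1.42.

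Among 10435 other genes above the floor on all arrays, those with the smallest such difference were sought for each member that passed 2-fold. For NFKB1 they were RFFL, a ubiquitin ligase (0.11), MALL (0.16) and RIT1, a small GTPase (0.17). For NFKB2 they were TRIM15 (0.27), PLAUR, the urokinase receptor (0.33), and PRKCD, a protein kinase C (0.33). For RELB they were PHLDA2 (0.26), EPHA2, a receptor tyrosine kinase (0.27), and VMP1, a membrane protein of autophagy (0.51), so VMP1 lay clearly further off than the others. For REL they were ZNF503 (0.26), RHOB, a small GTPase (0.26), and F3, tissue factor (0.27). For MAP3K14 they were EPPK1, epiplakin (0.11), KRABD5 (0.13) and ATAD3A (0.14). Likeness over 5 ratios that share the 0 h array is a description and carries no statement on control.

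The rest of the pathway was read from 9 lists with 112 genes, of which 100 had a probe set of their own and 90 were above the floor on at least 1 array. Of these 90, 19, 22, 26, 22 and 11 were at least 2-fold higher at 1, 3, 6, 24 and 48 h, and none was at least 2-fold lower. Over all genes the shares higher were 2.16%, 3.46%, 4.66%, 4.36% and 4.3%, and those lower ran from 1.66% to 7.12%. The counts of single lists below are to be read against the same shares. The median log2 ratio over the 90 genes was 0.07, 0.33, 0.43, 0.25 and 0.14, against -0.04 to 0 over all 14760 measured genes. With _x_at and _s_at probe sets left out, which can match several transcripts or genes, the counts were 7, 11, 12, 12 and 8. Genes with only such probe sets, IER3 and TNFRSF12A among them, then had no value, so these counts are not out of 90. NFKBIA and TNFAIP3 stand in 2 lists each and were counted once in these totals.

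**Figure D5:**
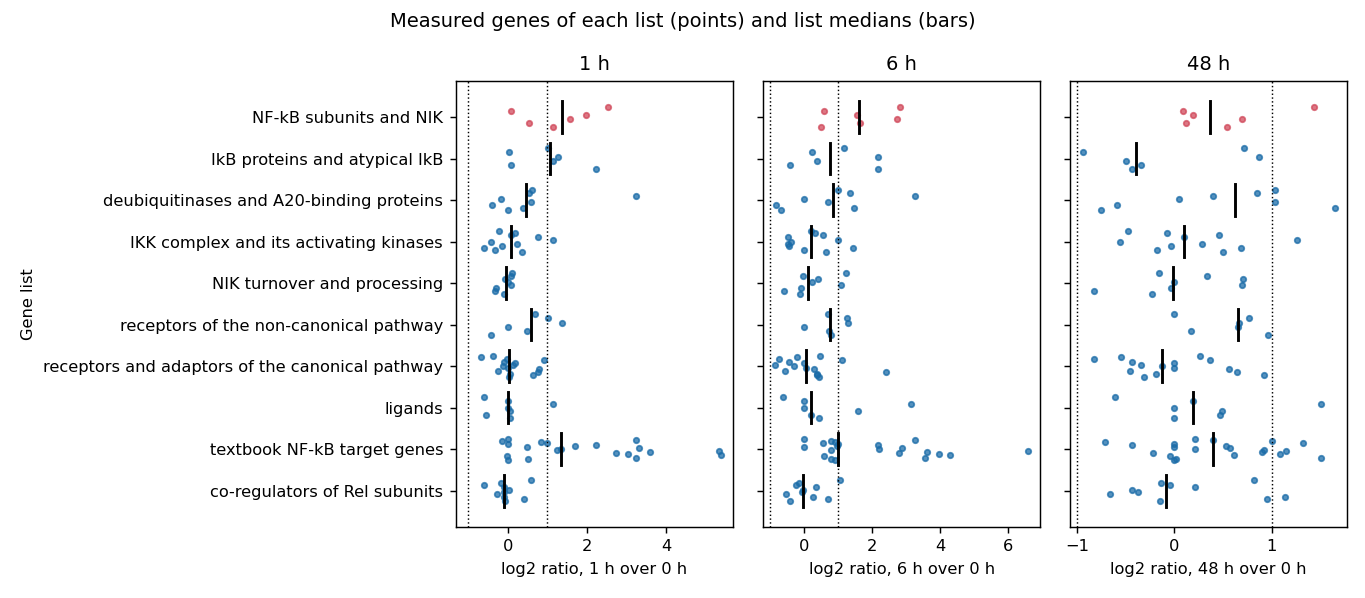
Log2 ratio to 0 h at 1, 6 and 48 h of each measured gene (points) of the 6 subunit and NIK genes (red) and of 9 pathway lists (blue), with the list median as a black bar and dotted lines at 2-fold either way. The x axes differ in range between panels. At 6 h, 4 of the subunit genes, 3 IkB genes and 11 target genes lie beyond 2-fold.

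Among the ligands, LTB, which encodes lymphotoxin beta, a ligand of the non-canonical pathway, had signals of 4.18, under the floor, and then 36.0, 67.8, 142, 74.7 and 46.3. At 6 h it was up by at least 8.77-fold, and it was past 2-fold at each coculture time. The other of the 2 LTB probe sets did not show this rise. It was under the floor from 0 to 24 h, and its log2 ratio at 48 h was at least 0.53. With the floor at 37.5 no ligand was past 2-fold at 1, 3, 24 or 48 h, and with the median over probe sets none was at 1 h. IL1B was 2.99-fold higher at 6 h, where its signal was 92.1 against 30.8 at 0 h. TNF was under the floor at every time. Of 7 measured ligands of 11 listed, LTB alone was past 2-fold at 1, 3, 24 and 48 h, and LTB and IL1B were at 6 h. Among all genes 2.16% to 4.66% were, and counts this small were not read as a result about the list.

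Of the receptors that feed the non-canonical branch, 6 of 8 were measured, and 2, 3, 2, 3 and 0 of them were at least 2-fold higher in the order of the times. TNFRSF12A, the receptor of the cytokine TWEAK, was 2.95-fold higher at 3 h, its top. TNFRSF1B, the second TNF receptor, was 2.43-fold higher at 6 h. LTBR, the receptor of lymphotoxin beta, had signals of 257, 357, 433, 431, 326 and 289 in the order of the times from 0 h and stayed under 2-fold. Its measured probe sets disagreed in direction, with log2 ratios of -0.58 to 0.75 at 3 h. TNFRSF4 and TNFRSF11A passed 2-fold at 3 h and at 24 h, each from a baseline under the floor. The other TNFRSF11A probe set had a log2 ratio of 0.13 at 24 h. The list median was 0.58, 0.98, 0.77, 0.74 and 0.66.

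Canonical receptors and adaptors had 15 of 20 genes measured and 0, 2, 2, 1 and 0 past 2-fold. Among all genes 2.16% to 4.66% were higher, and counts this small were not read as a result about the list. TNFRSF1A, the main TNF receptor, had 159 at 0 h and 485 at 3 h, 3.06-fold higher, and was 2.16-fold higher at 6 h. IRAK2, a kinase of interleukin-1 signalling, had a top of 5.30-fold over 0 h at 6 h. TLR2 was lower at 6 h by a log2 ratio of -0.83, short of 2-fold. The list medians lay between -0.12 at 48 h and 0.07 at 6 h.

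Among the core kinases, all 11 genes of the IKK list were measured, and 1, 0, 2, 1 and 1 were past 2-fold. Among all genes 2.16% to 4.66% were higher, and counts this small were not read as a result about the list. CHUK, which encodes IKK-alpha, had log2 ratios of 0.35 to 0.69, IKBKB, which encodes IKK-beta, of -0.68 to 0.01, and IKBKG, which encodes the NEMO subunit, of -0.43 to -0.04. MAP3K8, a kinase that binds p105, had fold values of 2.19 at 1 h and 2.74 at 24 h, and IKBKE was 2.72-fold higher at 6 h. The list medians ran from -0.06 at 24 h to 0.21 at 6 h.

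Genes of NIK turnover and precursor processing had 8 of 10 measured, with 0, 1, 2, 0 and 0 past 2-fold. Among all genes 2.16% to 4.66% were higher, and counts this small were not read as a result about the list. TRAF3, the adaptor that brings NIK to its degradation, had 73.2, 78.3, 135, 171, 82.4 and 65.8, and was 2.34-fold higher at 6 h. Its other probe set had a log2 ratio of 1.04 at that time. FBXW7, the recognition subunit of a ubiquitin ligase, was 2.15-fold higher at 3 h, where its 3 measured probe sets had log2 ratios of 0.09 to 1.11, and BIRC2, which encodes the ligase cIAP1, had log2 ratios of -0.37 to -0.07. TRAF2 and BIRC3 had no probe set of their own here. BTRC, the subunit that recognises phosphorylated IkB, had a log2 ratio of -0.86 at 24 h, short of 2-fold, and its 3 measured probe sets disagreed in direction there, from -0.86 to 0.74.

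Of 7 listed IkB genes 6 were measured, and 4, 3, 3, 3 and 0 were past 2-fold. NFKBIA, NFKBIE and NFKBIZ passed at each time up to 24 h. NFKBIA, which encodes IkB-alpha, had 682, 3203, 3230, 3103, 1457 and 505, and was 4.69-fold higher at 1 h. NFKBIE, which encodes IkB-epsilon, had its top at 6 h, with 447 against 98.2 at 0 h, 4.56-fold higher. NFKBIZ, an atypical nuclear IkB, had fold values of 2.03 to 2.27 at 1 to 6 h, and NFKBID passed with 2.19 at 1 h only. At 48 h the list median was -0.39, with NFKBIA at -0.43. The second NFKBIA probe set, which was dim, had log2 ratios of 0.02, 0.62, 0.56 and 0.98 at 1, 3, 6 and 24 h. The other NFKBIZ probe set had 0.18, 0.96, 1.15 and 0.55 at those times. At 1 h the 3 NFKBID probe sets ran from -0.14 to 1.13. With the median over the probe sets of a gene, 2 IkB genes were past 2-fold at 1 h.

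Deubiquitinases and their partners, which end the signal, had 8 of 9 genes measured and 1, 3, 3, 4 and 3 past 2-fold. TNFAIP3, the enzyme A20, had fold values of 9.48 at 1 h and 4.68 at 24 h, and its log2 ratio at 48 h was 0.40. TNIP1 was 2.55-fold higher at 6 h, TNIP2 2.14-fold at 24 h and ITCH, a ubiquitin ligase, 3.14-fold at 48 h. The 6 probe sets of ITCH had log2 ratios of 0.42 to 2.03 at 48 h.

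Known target genes had 21 of 25 measured and 12, 11, 11, 11 and 5 past 2-fold. The largest log2 ratios in this list were those of the chemokines CXCL8, CXCL1, CXCL10 and CXCL3, which attract leukocytes. CXCL1 was highest at 1 h like REL, 41.6-fold above 0 h, and was 1.53-fold higher at 48 h. CXCL8 was highest at 6 h like NFKB1 and NFKB2, at least 94.9-fold above 0 h, while its second probe set, which was dim, had a log2 ratio of 0.32 at that time. At the same time the fold of CXCL10 was at least 15.7 and that of CXCL3 was 12.3. The list median was 1.35, 1.41, 1.00, 1.02 and 0.40.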

How the data were processed

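Caco-2 RNA was measured on Affymetrix HG-U133 Plus 2.0 arrays, 1 for each of 6 times. The authors deposited 1 linear intensity per probe set and array, made with MAS5 per the submitters' processing notes. No version or scaling target is given in the sources used here. MAS5 scales each array by a trimmed mean, and the 2% trimmed mean was 93.8 on each array, so changes in total RNA per cell are invisible. The authors' scaling was kept.

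A floor of 16.2, the 50th percentile over all arrays, was put under the signals before log2 was taken, with Python 3.11.15, numpy 2.4.6 and pandas 2.3.3. Of 54675 probe sets, 41097 had 1 symbol in the platform annotation and 1801 had several. Symbols were updated through gene identifiers, 41043 of which matched a RefSeq table. Each of 19775 genes was represented by its brightest probe set, by mean log2 over the arrays. A gene counted as higher or lower at 2-fold with the brighter array above the floor; a fold over a value under the floor is given as at least that size. Shares of all genes are over those with the brighter array above the floor.

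The members and the gene lists were chosen with earlier results of these data known. Named genes are the members, at most 4 genes of each list with the largest absolute log2 ratio at any time, some defining pathway genes, and the 3 genes most like each member. Alternatives were other scalings, floors, a pseudocount, other choices of probe set, the 1 h baseline and size rules of 1.5-fold and 3-fold. The number of arrays limits the precision.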

Additional observations from a re-analysis of the deposited data

How the results depend on the processing

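No paired analysis was possible because each time has 1 array. Under quantile normalization and under a common median no count of subunit genes, count over the 90 pathway genes or median over them moved past its limit. The floor matters for the latest time: with the floor at the 65th percentile, or the floor value as a pseudocount, 0 subunit genes were 2-fold higher at 48 h, and 6 and 7 pathway genes were. With the floor at the 30th percentile, 3, 1, 1 and 2 pathway genes were 2-fold lower at 1, 6, 24 and 48 h. With the median over probe sets, 2 subunit genes and 7 pathway genes were higher at 48 h, 1 pathway gene was lower at 6 h and 1 at 48 h, and the pathway median was 0.21, 0.30 and 0.071 at 3, 6 and 24 h. With _x_at and _s_at probe sets left out, none remained for RELA or for some pathway genes, which were then not counted. On that choice 2 subunit genes were higher at 48 h. Of the pathway genes left, 7, 11, 12 and 12 were higher at 1, 3, 6 and 24 h and 1 was lower at 6 h. Their median was 0.17, 0.12 and 0 at 3, 24 and 48 h.

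With the 1 h array as the baseline, 0, 2, 0 and 0 subunit genes were higher at 3, 6, 24 and 48 h, and 1 and 2 were lower at 24 and 48 h. The log2 ratio of REL then was -0.35 at 3 h and -0.42 at 6 h, and that of RELB -0.14 at 24 h and -1.10 at 48 h, since both genes had gained most of their signal by 1 h. On that baseline 4, 9, 3 and 6 pathway genes were higher and 3, 2, 9 and 13 lower at 3, 6, 24 and 48 h, with a median of 0.10, 0.14, 0 and -0.12. At 1.5-fold, 2 subunit genes were higher at 48 h, 35, 40, 34 and 28 pathway genes were higher at 3, 6, 24 and 48 h, and 4, 3, 5, 4 and 7 were lower at 1, 3, 6, 24 and 48 h. At 3-fold, 2 and 0 subunit genes were higher at 1 and 48 h, and 10, 14, 13, 8 and 1 pathway genes in the order of the times. The share of all genes was not counted under the other scalings, the other floors, the pseudocount or the other choices of probe set. Nor was it counted at 1.5-fold, at 3-fold or at 6 to 48 h over 1 h. These counts thus have no share to be read against. Signals near the floor limit the sizes given for RELB and MAP3K14.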

Other observations

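Co-regulators that modify or bind Rel subunits had 10 of 14 genes measured. Of these, 0, 0, 1, 0 and 1 were at least 2-fold higher at 1, 3, 6, 24 and 48 h. Among all genes 2.16% to 4.66% were, and counts this small were not read as a result about the list. The list medians were -0.10 to -0.00. SIRT1, a deacetylase that acts on RELA, was 2.08-fold higher at 6 h than at 0 h. EP300, an acetyltransferase and co-activator, was 2.20-fold higher at 48 h, where its other measured probe set had a log2 ratio of 0.09. CREBBP, a close relative of EP300, had log2 ratios of 0.42 at 1 h to 0.95 at 48 h. Its 3 measured probe sets disagreed in direction, from -0.31 to 0.42 at 1 h and from -0.31 to 0.95 at 48 h. HDAC1, a histone deacetylase, had log2 ratios of -0.26 at 1 h to -0.66 at 48 h. All these values were short of 2-fold.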
